A study of Saccharomyces cerevisiae with 4 samples.

Results

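The 10 histone genes of budding yeast (Saccharomyces cerevisiae) described here were taken by name from a table of RPKM values for 7126 genes. They are HTA1 and HTA2 for histone H2A, HTB1 and HTB2 for H2B, HHT1 and HHT2 for H3, HHF1 and HHF2 for H4, the linker histone gene HHO1 and the gene of the centromeric H3 variant, CSE4. All 10 had a row in the table, and all 10 passed the filter on low values. The table holds poly(A) RNA of a wild-type strain (WT) and of a strain labelled T4V, with 2 libraries of each. In T4V, threonine 4 of the repeated heptad in the C-terminal domain (CTD) of RNA polymerase II is replaced by valine. The strain background, the medium, the growth phase and how the altered subunit was supplied are not given in these sources. Nothing states that the 2 libraries of a genotype came from separate cultures, so p-values measure the spread between these libraries. RPKM per gene does not carry the base change, so which library is mutant is known from the labels alone.

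Nucleosomes wrap DNA around an octamer of H2A, H2B, H3 and H4. In yeast each of these proteins is encoded by a pair of genes, and the genes sit as divergent couples, an H2A gene facing an H2B gene and an H3 gene facing an H4 gene across a shared promoter. Their transcription peaks in S phase, driven by the activators Spt10 and Spt21. Outside S phase the HIR complex holds down the couples other than HTA2-HTB2, which lacks the element it acts through. Replication-dependent histone mRNAs of animals end in a stem-loop, and in chicken cells threonine 4 of the CTD is needed for their 3′ processing. Yeast histone mRNAs carry poly(A) tails like other mRNAs, so selection on oligo-dT keeps them.

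The copies of a pair are close relatives, and how far a read can tell them apart sets what a share of a pair means. The 100-base coding windows in which the copies of the H2B, H3 and H4 pairs differ least are shown for that reason, read from the RefSeq R64 assembly on the coding strand, with differing bases in capitals. The HTB windows lie at chrIV:914487-914586 on the minus strand and chrII:236618-236717 on the plus strand. The HHT windows lie at chrII:256487-256586 on the plus strand and chrXIV:575795-575894 on the minus strand. The HHF windows lie at chrII:255495-255594 on the minus strand and chrXIV:576817-576916 on the plus strand.
HTB1: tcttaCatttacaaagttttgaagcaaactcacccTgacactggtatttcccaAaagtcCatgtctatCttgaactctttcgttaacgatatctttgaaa
HTB2: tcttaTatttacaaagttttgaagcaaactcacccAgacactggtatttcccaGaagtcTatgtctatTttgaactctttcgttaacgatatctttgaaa
HHT1: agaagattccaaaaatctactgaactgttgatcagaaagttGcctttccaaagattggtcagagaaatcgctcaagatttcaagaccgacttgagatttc
HHT2: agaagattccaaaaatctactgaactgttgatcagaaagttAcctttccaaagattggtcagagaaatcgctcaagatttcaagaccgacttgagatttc
HHF1: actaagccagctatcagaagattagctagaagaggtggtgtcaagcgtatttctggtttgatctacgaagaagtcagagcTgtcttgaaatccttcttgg
HHF2: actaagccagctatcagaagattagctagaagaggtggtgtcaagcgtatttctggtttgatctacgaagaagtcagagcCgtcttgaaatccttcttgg
Even in these windows the HTB copies differ at 5 bases, while the HHT and the HHF copies differ at 1.

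Over the whole coding sequence the H2B copies were the most different, with 48 of 396 bases differing. The H3 copies differ at 28 of 411 bases and the H2A copies at 25 of 399. The H4 copies differ at 8 of 312 bases and share an identical run of 80 bases. All 27 differing codons of the H3 pair and all 8 of the H4 pair are synonymous, so each of these pairs encodes a single protein. In the H2A pair 2 of 23 differing codons change the residue, and in the H2B pair 4 of 42 do.

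**Figure D1:**
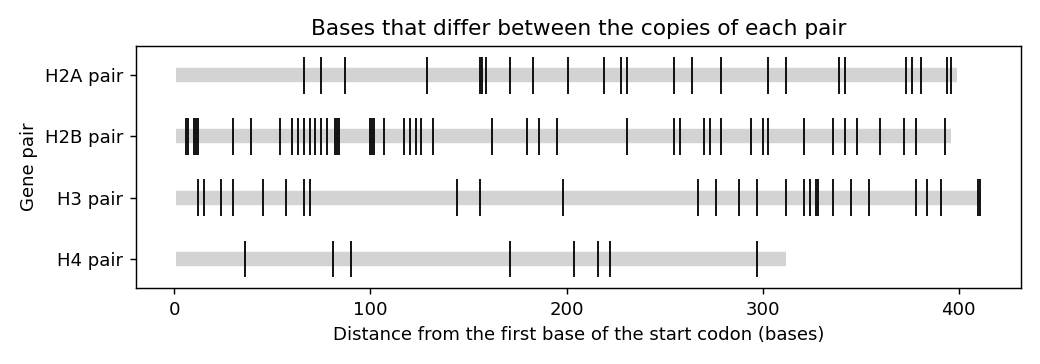
Positions at which the 2 copies of each histone gene pair differ (black ticks) along the coding sequence (grey bars), in bases from the start codon. The H4 pair has 8 ticks, the H2A pair 25, the H3 pair 28 and the H2B pair 48.

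The read length is not given, so the share of windows found at 1 place in the genome was counted for several lengths. At 36 bases, 100% of the HTB windows were unique, as were 90.1% of the HTA, 79.3% of the HHT and 66.4% of the HHF windows. At 50 bases these shares were 95.4% for HTA, 87.8% for HHT and 78.7% for HHF. At 76 bases only the HHF genes had repeated windows, 2.11% of them, and at 100 bases no member had any. HHO1 and CSE4 were unique at each of these lengths. The split of the H2B pair therefore rests on unique sequence at every length counted, and that of the H4 pair least so. How the authors placed reads that match both copies was not given. No other annotated RefSeq gene overlaps any of the 10 coding sequences.

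The couples that share a promoter are HTA1 and HTB1 on chromosome IV, HTA2 and HTB2 on chromosome II, HHT1 and HHF1 on chromosome II, and HHT2 and HHF2 on chromosome XIV. The stretches between them measure 817, 699, 646 and 676 bases from start codon to start codon. They are shown around their matches to the Spt10 site, searched on both strands as TTCC, then 6 bases of any kind, then TTC, 1 base of any kind and C, because both genes of a couple share each match. Capitals mark the matches, and the flanks are 30 bases. The first stretch is chrIV:915084-915181 on the plus strand, and its second match lies on the other strand, so it reads as the reverse complement. The others are on the minus strand, at chrII:236078-236152, chrII:255914-255988 and chrXIV:576316-576390.
HTA1-HTB1: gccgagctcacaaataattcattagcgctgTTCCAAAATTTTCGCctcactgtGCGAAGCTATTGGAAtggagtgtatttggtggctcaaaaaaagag
HTA2-HTB2: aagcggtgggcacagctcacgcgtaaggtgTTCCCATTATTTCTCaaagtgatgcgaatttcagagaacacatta
HHT1-HHF1: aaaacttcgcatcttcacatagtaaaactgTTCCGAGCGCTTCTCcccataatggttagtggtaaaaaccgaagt
HHT2-HHF2: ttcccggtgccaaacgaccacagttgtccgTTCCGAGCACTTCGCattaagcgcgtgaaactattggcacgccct
HTA1-HTB1 holds 2 matches that do not overlap, and each other couple holds 1. In the 500 bases before the start codon, all 8 core histone genes had a match, where 2.89% of 6021 protein-coding genes did. HHO1 and CSE4 had none. Both genes of a couple were counted on the same stretch. The pattern was chosen as the site of an activator of the core genes, so their matches are not an independent result. A match is a description of these letters and does not show that the site is bound.

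The recovered library sizes ran from 3355000 to 4261000 reads (read counts were recovered from the RPKM steps). Reads of the 10 histone genes made up 0.322% and 0.338% of the WT libraries and 0.309% and 0.316% of the T4V libraries. Behind single values stood 1854 to 2477 reads for HHT2 but only 51 to 58 for CSE4, so CSE4 is the least precise of the 10. The reads were amplified by PCR without molecular identifiers, so read-count intervals cover counting error only.

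The core histone genes were abundant RNAs in both genotypes. RPKM is a level per length of gene, and on that basis levels were set beside each other across genes. Effects of gene length and of the placing of reads common to both copies were not tested. HHF1 was the highest on average and lay between rank 94 and rank 128 of the table in the 4 libraries, and HTA1, the lowest core gene, between rank 311 and rank 366. In WT the order by mean RPKM was HHF1, HHT2, HHT1, HTA2, HHF2, HTB2, HTB1, HTA1, HHO1 and CSE4, and in T4V the means had the same order. Neighbours whose WT libraries overlapped were HHF1 with HHT2, HHT1 with HTA2, HTA2 with HHF2, and HHF2 with HTB2. In T4V, HHF1 still overlapped HHT2, and HTA2 overlapped HHF2. HTB2 stood clear of HTB1, HTB1 of HTA1, HTA1 of HHO1 and HHO1 of CSE4 in both genotypes.

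**Figure D2:**
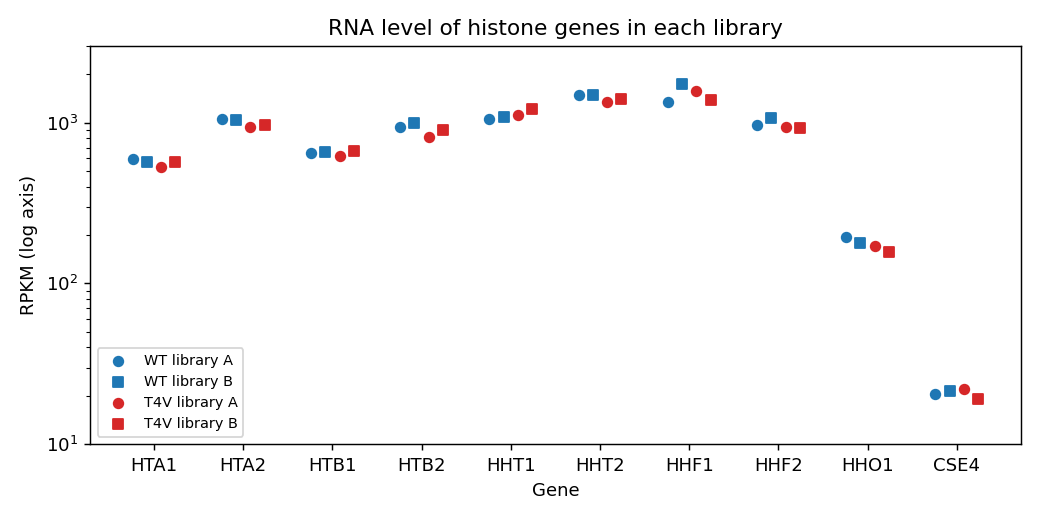
RPKM of the 10 histone genes (log axis) in WT libraries (blue) and T4V libraries (red), 1 point per library. The core genes lie between 528 and 1740 RPKM, HHO1 between 158 and 193, and CSE4 between 19.0 and 22.0.

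Set against all genes, no histone gene passed the test for a difference between T4V and WT. By limma with Benjamini-Hochberg adjustment over 5935 genes, 0 of the 10 were called at an adjusted p under 0.05, where 17.9% of all genes tested were called. At an unadjusted p under 0.05 there were 2 of 10, HTA2 and HTB2, where 33.6% of all genes reached it. Voom on the recovered reads also called 0 of 10, against 28.1% of all genes, and 3 of 10 had an unadjusted p under 0.05 there, against 38.5%. The log2 fold changes (T4V minus WT, on log2(RPKM + 1)) ran from -0.18 for HHO1 to 0.12 for HHT1, and the lowest adjusted p was 0.131, for HTA2.

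The 95% intervals, taken gene by gene in the unscaled fit, reflect the spread between these libraries. They do not cover scaling, after which the lowest estimate, of HHO1, was -0.25 (median-of-ratios) or -0.27 (quantile). Over the 10 genes the intervals ran from -0.37 to 0.29 on the log2 scale, which is 0.774-fold to 1.22-fold. A 2-fold change of any single histone gene lies outside its interval. Estimates were below 0 in 9 of 10 genes, where 40.6% of all genes tested were below 0, and their median was -0.10 beside 0.07 for all genes tested. T4V and WT libraries did not overlap in 6 of the 10, beside 62% of all genes. Of these, 5 were lower in T4V and 1 was higher, beside 23.4% and 38.6% of all genes. In bulk RNA, fewer cells in S phase and less histone RNA per cell cannot be told apart.

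**Figure D3:**
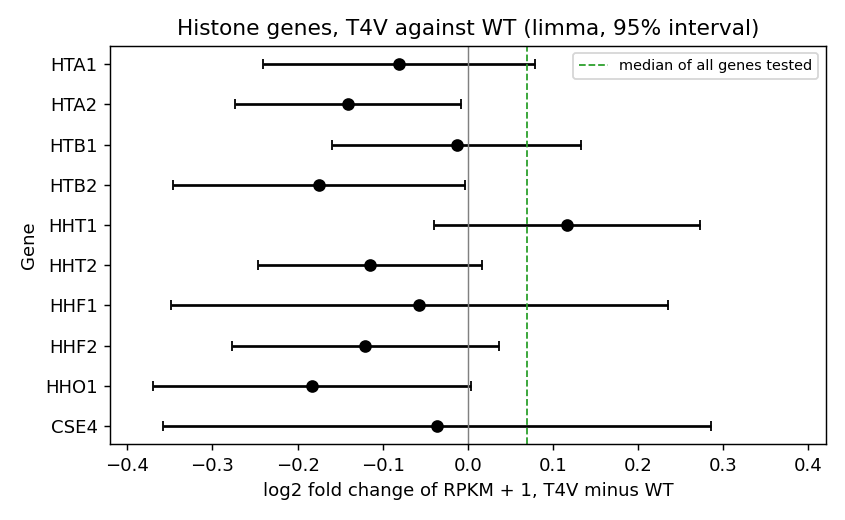
Log2 fold change of each histone gene, T4V minus WT, on the log2(RPKM + 1) scale, with limma's 95% interval (2 libraries per genotype). Points run from -0.18 to 0.12, and the dashed line is the median of all genes tested, 0.07.

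The H2A and H2B genes of the HTA2-HTB2 couple gave the lowest p-values in the unscaled fit. Unadjusted limma p was 0.040 for HTA2 and 0.047 for HTB2, beside 0.054 for HHO1. The order was not the same under the alternatives. After quantile normalization HHO1 had the lowest limma adjusted p (0.0687), and with no filter HHT2 came before HTB2 (0.156 and 0.304). HTA2 had 1058 and 1039 RPKM in WT and 937 and 965 in T4V. Both T4V libraries lay below both WT libraries. The log2 fold change was -0.14 ± 0.06 (SE), with a limma adjusted p of 0.131. Its divergent partner HTB2 had 945 and 989 RPKM in WT and 811 and 906 in T4V, again without overlap. The log2 fold change of HTB2 was -0.17 ± 0.07 (SE), with a limma adjusted p of 0.143.

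The HTA1-HTB1 couple was lower in level and its libraries overlapped between genotypes. HTA1 had 595 and 569 RPKM in WT and 528 and 573 in T4V, with a log2 fold change of -0.08 ± 0.07 (SE). HTB1 had 646 and 656 RPKM in WT and 625 and 666 in T4V, with a log2 fold change of -0.01 ± 0.06 (SE). The limma adjusted p were 0.446 and 0.905. Added over both genes, the HTA2-HTB2 couple stood 1.61 and 1.66 times as high as HTA1-HTB1 in the WT libraries and 1.52 and 1.51 times as high in the T4V libraries. The ratio was thus lower in both T4V libraries, with a mean difference of -0.12.

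The estimates of the H3 genes had opposite signs, and neither gene passed the test. HHT1 had 1048 and 1091 RPKM in WT and 1110 and 1211 in T4V. It was the only histone gene with both T4V libraries above both WT libraries, with a log2 fold change of 0.12 ± 0.07 (SE) and a limma adjusted p of 0.267. HHT2 had 1482 and 1483 RPKM in WT and 1344 and 1393 in T4V, and here both T4V libraries lay below. Its log2 fold change was -0.11 ± 0.06 (SE), with a limma adjusted p of 0.199.

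HHF1 showed the widest spread between libraries of a genotype. HHF1 had 1351 and 1740 RPKM in WT and 1566 and 1388 in T4V. The 2 WT libraries differed by 389 RPKM, while the genotype means differed by -68.9, and both T4V libraries fell between them. HHF2 had 967 and 1062 RPKM in WT and 937 and 927 in T4V, without overlap. The log2 fold changes were -0.06 ± 0.12 (SE) for HHF1 and -0.12 ± 0.07 (SE) for HHF2, with limma adjusted p of 0.789 and 0.251. The estimate for HHF1 turned to 0.13 without WT library B and to 0.03 without T4V library B.

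HHO1, whose product binds linker DNA between nucleosomes, stood well below the core genes. It had 193 and 179 RPKM in WT and 170 and 158 in T4V, so that both T4V libraries lay below both WT libraries. Its log2 fold change of -0.18 ± 0.08 (SE) was the lowest of the 10, with a limma adjusted p of 0.156. CSE4, whose product replaces H3 at centromeres, had 20.7 and 21.4 RPKM in WT and 22.0 and 19.0 in T4V. The libraries overlapped, and the log2 fold change was -0.04 ± 0.13 (SE) with a limma adjusted p of 0.879. CSE4 amounted to 0.817% and 0.832% of the summed H3 pair in WT and to 0.898% and 0.732% in T4V. For HTZ1, the H2A variant gene, the level was 6.54% and 5.97% of the summed H2A pair in WT and 6.93% and 5.99% in T4V, so these shares overlapped between genotypes too.

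Within each pair, the copies contributed unequally in every library. The copy numbered 2 was the larger of the H2A, H2B and H3 pairs, and the smaller of the H4 pair. HTA2 made up 64.0% and 64.6% of the H2A pair in WT and 63.9% and 62.7% in T4V. HTB2 made up 59.4% and 60.1% of the H2B pair in WT and 56.5% and 57.6% in T4V. HHT2 made up 58.6% and 57.6% of the H3 pair in WT and 54.8% and 53.5% in T4V. In these pairs both T4V shares lay below both WT shares. HHF2 made up 41.7% and 37.9% of the H4 pair in WT and 37.4% and 40.0% in T4V, and these shares overlapped.

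The H3 pair had the largest difference in share between the genotypes. The mean share of HHT2 was 58.1% ± 0.673 in WT and 54.1% ± 0.904 in T4V (SD, n = 2 each), a difference of -3.95 percentage points. The gaps between libraries of a genotype were 0.952 and 1.28 points. For the H2B pair, whose copies share no 36-base window, the share of HTB2 differed by -2.72 points, with gaps of 0.743 and 1.14 points. For HTA2 the difference was -0.97 points, smaller than the gap of 1.21 points between the T4V libraries. For HHF2 the difference was -1.06 points, with a gap of 3.80 points between the WT libraries. With 2 libraries a group, the exact permutation test (2-sided) cannot go below p = 0.333. It gave 0.333 for H2A, H2B and H3 and 0.667 for H4, or 0.444 and 0.667 adjusted over the 4 pairs, so none of these differences could pass.

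The counting error of each share can be set beside these differences. The 95% Wilson interval of the HHT2 share was 57.1% to 60.0% and 56.1% to 59.2% in the WT libraries, on 4229 and 3865 reads of the pair. In the T4V libraries it was 53.1% to 56.5% and 52.1% to 55.0%, on 3384 and 4560 reads. Only WT library B and T4V library A overlapped, between 56.1% and 56.5%. The intervals of HTB2 were 57.5% to 61.3% and 58.2% to 62.1% in WT. In T4V they were 54.2% to 58.7% and 55.7% to 59.5%, so those of HTB2 overlapped between genotypes. For HHF2, the intervals of WT library A (39.9% to 43.5%) and WT library B (36.2% to 39.6%) did not overlap. Libraries of the same genotype can thus differ by more than counting error, and separate intervals do not by themselves show a genotype difference.

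**Figure D4:**
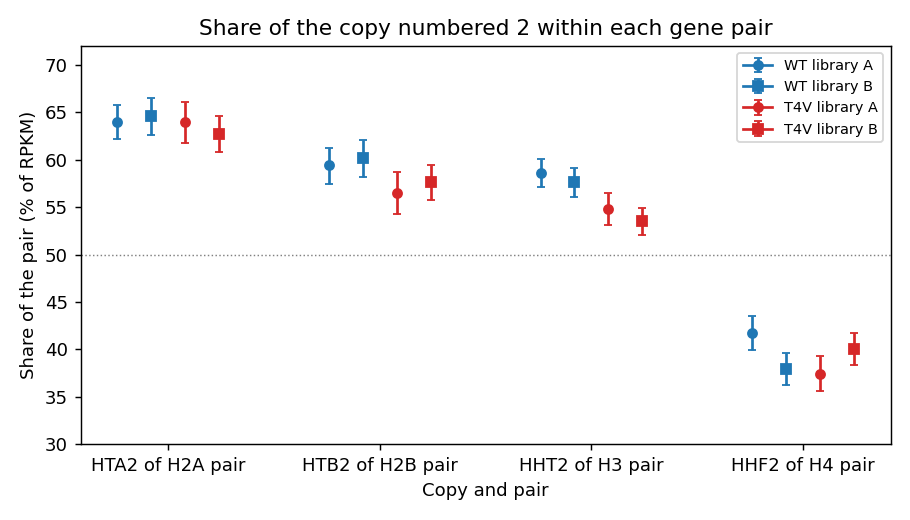
Share of the copy numbered 2 in the summed RPKM of each histone gene pair, by library, with 95% Wilson intervals from the recovered reads; the dotted line is 50%. HHT2 lies at 57.6% and 58.6% in WT and at 53.5% and 54.8% in T4V, while the HHF2 shares of the genotypes overlap.

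Sums over a pair do not depend on how reads common to both copies were divided, provided none was dropped or counted for both copies. Whether that held is not given. The H2A pair summed to 1652 and 1608 RPKM in WT and 1465 and 1538 in T4V, and the H2B pair to 1592 and 1645 in WT and 1435 and 1572 in T4V. Both sums were lower in both T4V libraries, with mean differences of -7.92% and -7.10%. The mean difference of the H2B sum was -115 RPKM, or -46.7 RPKM without T4V library A and -183 RPKM without T4V library B. The H3 pair summed to 2530 and 2573 RPKM in WT and 2454 and 2604 in T4V, and the genotypes overlapped. The H4 pair summed to 2318 and 2802 RPKM in WT and 2503 and 2315 in T4V, also overlapping. The sign of the H3 difference turned without T4V library A (52.6 RPKM), and that of the H4 difference, -151 RPKM, without WT library B (90.6 RPKM). The difference of the H3 sum was -22.4 RPKM as deposited and -135 RPKM after median-of-ratios scaling. In the same order it was -129 and -199 for the H2A sum, -115 and -184 for H2B, and -151 and -262 for H4.

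The partners that meet in a dimer had similar summed levels. The H2A pair stood at 1.04 and 0.977 times the H2B pair in WT and at 1.02 and 0.978 times in T4V. The H3 pair stood at 1.09 and 0.918 times the H4 pair in WT and at 0.980 and 1.12 times in T4V. The H3 and H4 genes together reached 1.49 and 1.65 times the level of the H2A and H2B genes in WT, and 1.71 and 1.58 times in T4V. The H4 coding sequences are the shortest of these genes, at 312 bases, and an effect of gene length on RPKM was not tested. At 36 bases, 33.6% of HHF, 20.7% of HHT, 9.89% of HTA and 0% of HTB windows were repeated. An effect of dropped or doubly counted reads on these ratios was not tested either.

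The H3-H4 couples were unbalanced in opposite ways. At HHT1-HHF1 the H4 gene was the higher one, with HHT1 at 0.776 and 0.627 times HHF1 in WT and 0.709 and 0.872 times in T4V. At HHT2-HHF2 the H3 gene was the higher one, at 1.53 and 1.40 times HHF2 in WT and 1.43 and 1.50 times in T4V. The HTA1-HTB1 couple had HTA1 slightly below HTB1 in every library, at 0.845 to 0.920 times, and the HTA2-HTB2 couple had HTA2 slightly above HTB2, at 1.05 to 1.16 times.

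Genes that regulate the histone promoters did not pass the test either. None of the 12 listed, namely SPT10, SPT21, HIR1, HIR2, HIR3, HPC2, ASF1, RTT106, YTA7, SWI4, SWI6 and MBP1, was called by limma or by voom, where 17.9% and 28.1% of all genes tested were. At an unadjusted p under 0.05 there were 0 by limma and 6 by voom, where 33.6% and 38.5% of all genes were. Their log2 fold changes ran from -0.33 for HIR2, of the HIR repressor complex, to 0.24 for MBP1, a G1/S transcription factor. The list median was -0.14, beside 0.07 for all genes tested. SPT10 had 21.5 RPKM in WT and 18.9 in T4V in the mean, with an interval of log2 fold change from -0.53 to 0.18.

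Of 14 histone chaperone genes, 3 fell in T4V and 0 rose by limma at an adjusted p under 0.05, where 6.25% of all genes tested were called lower and 11.7% higher. VPS75, a chaperone that works with the acetyltransferase Rtt109, had 82.9 and 80.5 RPKM in WT and 64.9 and 59.9 in T4V, a log2 fold change of -0.38. CHZ1, a chaperone of the Htz1-H2B dimer, fell by 0.32 on that scale, and NHP6A, a DNA-bending protein that works with the FACT complex, by 0.22. NHP6A overlaps another gene on the same strand over 187 bases and has the close relative NHP6B, so its reads may be shared, and its call was also lost after quantile normalization and with the robust variance model. The list median was 0.02. Of 21 histone-modifying enzyme genes, 1 rose and 2 fell, with a list median of -0.02. SET2, an H3 methyltransferase that binds the phosphorylated CTD, fell by 0.43, and GCN5, the acetyltransferase of the SAGA complex, by 0.29. ESA1, the acetyltransferase of the NuA4 complex, rose by 0.37, but was not called after median-of-ratios scaling or quantile normalization. Limma adjusted p of these 6 genes ran from 0.0265 to 0.0496. All 6 calls were lost without T4V library A or B (where 16 and 27 genes of the whole table were still called), with no filter on low values, and with no variance trend. Without WT library A only SET2 of the 6 was called, without WT library B only ESA1, and with a pseudocount of 0.1 all but NHP6A and GCN5.

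Around CSE4 itself, 3 of 9 genes of the centromere and inner kinetochore were called, 2 lower and 1 higher, where 17.9% of all genes tested were called. CEP3, a subunit of the complex that binds centromeric DNA, had 24.9 and 27.0 RPKM in WT and 11.7 and 11.7 in T4V, a log2 fold change of -1.08 ± 0.14 (SE) with a limma adjusted p of 0.00405. OKP1, a subunit of the inner kinetochore, fell by 0.54 (limma adjusted p = 0.0111). CTF19, which sits in the same kinetochore complex as OKP1, rose by 0.99, from 13.1 and 13.1 RPKM in WT to 24.4 and 29.8 in T4V (limma adjusted p = 0.00707). CTF19 overlaps a gene on the other strand over 27 bases. The list median was -0.08. The 3 genes were called without WT library A or B, but not without T4V library A or B, nor without a filter on low values.

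Core histone mRNA peaks in S phase, and cell cycle genes were therefore listed beside them. Of 17 G1/S genes, 4 fell and 0 rose by limma, where 6.25% of all genes fell and 11.7% rose. MCD1, a cohesin subunit gene, fell by 0.42, the G1 cyclin gene CLN2 by 0.38, the Pho85 cyclin gene PCL1 by 0.33 and the cell wall gene SVS1 by 0.29. The DNA replication genes on the list were not called by limma. Log2 fold changes were -0.05 for RNR1, -0.05 for POL1, -0.09 for POL30, -0.06 for CDC9, 0.02 for RFA1 and 0.07 for CDC21. Those of POL2, RAD27 and PRI1 were -0.26, -0.19 and -0.37. The lowest of the 17 G1/S genes was CLB6 at -0.64, which was not called (limma adjusted p = 0.0925). Of the 17 genes, 14 had a log2 fold change below 0, where 40.6% of all genes did. The list median was -0.15, and voom called 7 of the 17, where it called 28.1% of all genes. The summed G1/S level was 1758 and 1773 RPKM in WT and 1520 and 1559 in T4V, and no gene of the list was at 0 in any library. Summed levels of the G2/M list, 774 and 765 RPKM in WT and 729 and 726 in T4V, were also lower in T4V. Those of the M/G1 list were higher, with 3006 and 2892 RPKM in WT and 3164 and 3182 in T4V. Abundant genes weigh most in a sum. Mean RPKM was 844 in WT and 899 in T4V for CTS1, 610 and 722 for PIR1, and 600 and 666 for DSE2. None of these was called higher, and 4 of the 12 M/G1 genes had a log2 fold change below 0. The sums of the lists of promoter regulators, chaperones, modifying enzymes and centromere genes were each lower in both T4V libraries. In these lists 8 of 12, 6 of 14, 12 of 21 and 5 of 9 genes had log2 fold changes below 0, beside 40.6% of all genes. Of the mean chaperone sum, 5178 RPKM in WT and 4913 in T4V, NHP6B held 3282 and 3196 and NHP6A 1109 and 952. Among all single genes tested, 62% did not overlap between the genotypes. The histone estimates were mostly below 0 in the same libraries, and the part of the cell cycle genes in that was not tested. Without WT library A or B, 2 G1/S genes were called, and 0 without T4V library A or B, without a filter or without the variance trend.

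Limma called 0 of 12 G2/M genes, although 6 had an unadjusted p below 0.05 and 7 were called with voom. The shares over all genes were 17.9% called by limma, 33.6% at that unadjusted p and 28.1% called with voom. At that unadjusted p by limma there were also 7 of 12 M/G1 genes and 6 of 17 G1/S genes. The median of the G2/M list was -0.16, and 7 of its 12 genes had a log2 fold change below 0. From this list 1 gene, HST3, is also on the list of histone-modifying enzymes. Of 12 M/G1 genes 1 was called, MCM6, a subunit of the replicative helicase, which fell by 0.33, and the list median was 0.10. The call of MCM6 was lost without any 1 library, without a filter, without the variance trend and with a block for the column letter.

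**Figure D5:**
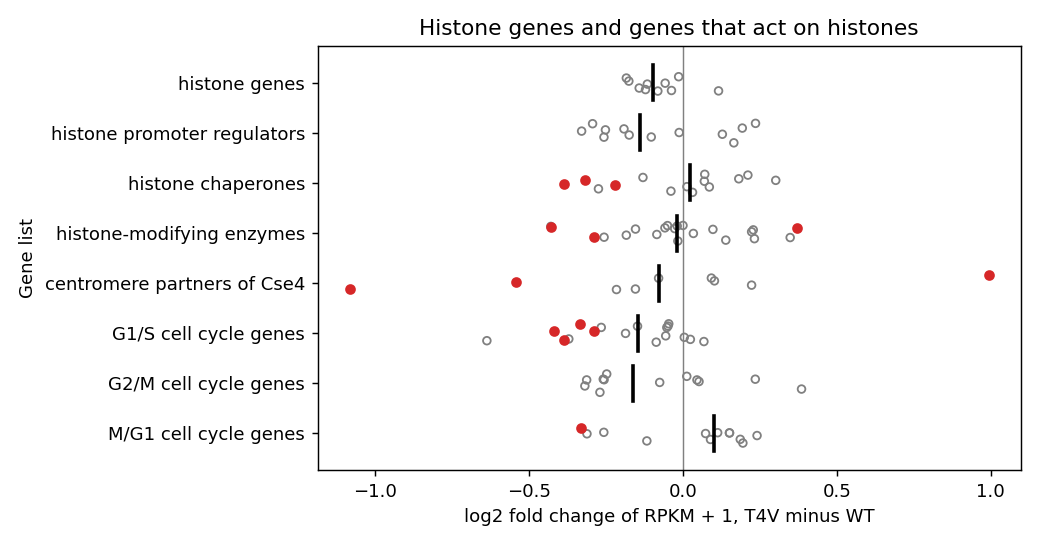
Log2 fold change of RPKM + 1, T4V minus WT, for the histone genes and for 7 lists of genes, 1 point per gene; filled red points passed limma at an adjusted p under 0.05 and black bars are medians. None of the histone genes and promoter regulators is filled, and the widest values are CEP3 at -1.08 and CTF19 at 0.99.

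The mean profile of the 8 core genes over the 4 libraries, centred on the log2 scale, was nearest to those of BUD2, OGG1 and EHD3 among 5112 other genes with a mean RPKM of at least 10. Their root-mean-square distances were 0.0062, 0.0076 and 0.0077. Such likeness rests on 4 libraries, and 365 genes (7.14%) lay nearer to this profile than the median core histone gene did, at 0.0503.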

How the data were processed

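Poly(A) RNA of 2 WT and 2 T4V libraries was sequenced after strand-keeping adapter ligation and PCR on an Illumina Genome Analyzer IIx, per the labels' protocols. Reads were placed with Bowtie2 on sacCer3, per the submitters' processing notes. The version, counting program, annotation, strand setting and read length are not stated there. RPKM values were deposited, per the file headers, in 1 column per library. Column names gave the genotype but no replicate number, so libraries are called A and B.

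Low RPKM values were whole multiples of 1 read. Reads were recovered from RPKM, the exonic length in RefSeq R64 (the release behind sacCer3) and a fitted library size. Among genes under 150 reads, 99.6% to 99.7% gave a whole number to within 0.1. In all, 6207 of 7126 genes matched RefSeq.

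Limma with a variance trend, 2-sided, was fitted on log2(RPKM + 1) to genes that reached 1 RPKM in 2 or more libraries, with no further scaling. Benjamini-Hochberg adjustment ran over all 5935 of them. Such fold changes understate those of low genes. The fit was tested on simulated data with known changes. R 4.3.3, limma 3.58.1, Python 3.11.15, pandas 2.3.3, numpy 2.4.6, scipy 1.17.1 and matplotlib 3.10.9 were used.

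The histone genes, the gene lists and the tests were chosen with earlier results of these data known. The genes named are the 10 histone genes, HTZ1, from each list at most 4 called genes, those that changed most, and the 3 of likest profile; other list genes named were chosen after their values were seen. The alternatives changed the pseudocount, filter, scaling, variance model and test, and left out each library; a block for the letter of the column name was added after the data were seen.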

Additional observations from a re-analysis of the deposited data

How the results depend on the processing

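No histone gene was called under any of the 14 alternatives, and in each of the scalings 9 of 10 estimates stayed below 0. Scaling moved the median of all genes by -0.06 (median-of-ratios) and -0.08 (quantile) on the log2 scale, and the lowest adjusted p of a histone gene was 0.0514, for HTA2 after median-of-ratios scaling. Histone genes at an unadjusted p under 0.05 numbered 5 of 10 after that scaling and 0 without the variance trend. The share of all genes at that p was not counted in these fits, so these numbers cannot be set against all genes. Leaving out 1 library turned the sign of HHF1 (-0.24 to 0.13), HTB1 (-0.059 to 0.033) and CSE4 (-0.14 to 0.064), and of the HHF2 share difference (-2.97 to 0.84 points), the H3 pair sum (-97.3 to 52.6 RPKM) and the H4 pair sum (-393 to 90.6 RPKM). The HHT2 share difference ran from -4.59 to -3.31 points and that of HTB2 from -3.29 to -2.15. After median-of-ratios scaling the H2A, H2B, H3 and H4 pair sums differed by -199, -184, -135 and -262 RPKM.

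Over all genes, 1063 were called, 49 without a filter, 399 without the variance trend, and 16 to 746 with 1 library left out. With 1 library left out, the lone library of a genotype is assumed to vary like the pair. Without a filter 0 chaperone, modifying enzyme, centromere, G1/S and M/G1 genes were called, and without the trend 0 chaperone, modifying enzyme, G1/S and M/G1 genes. Voom called 7 of 17 G1/S, 7 of 12 G2/M and 3 of 12 M/G1 genes, beside 28.1% of all genes tested. A pseudocount of 10, or a filter at 10 RPKM, called 1 G2/M and 2 M/G1 genes, and either scaling 2 G2/M genes. With 1 library left out, the genes called were 0 of the chaperones, 0 to 2 of the modifying enzymes, 0 to 3 of the centromere list, 0 to 2 of G1/S, 0 to 1 of G2/M and 0 of M/G1. The columns share the letters A and B across genotypes, but nothing ties a letter to a replicate number or a shared batch. A replicate block on the letter, chosen after seeing the data, left 1 residual degree of freedom and called 1137 genes, 0 histone genes, 1 G2/M and 0 M/G1 genes; NHP6A, GCN5 and MCM6 were not called. Deviations of libraries with the same letter correlated at -0.015 across 5935 genes.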
